A study of Mus musculus with 9 samples.

Results

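The proteasome is described here through the genes of its subunits, activators and assembly factors in mouse monocytes grown in vitro. Members were the protein-coding rows of the gene count table whose symbol begins with Psma, Psmb, Psmc, Psmd, Psme, Psmf or Psmg followed by a digit. This rule took 50 of 46517 gene IDs and left aside 4 pseudogenes with such symbols. All 50 members passed the filter on low counts and stand among the 14059 genes tested. The genes of 5 interferon-inducible proteins, Psmb8, Psmb9, Psmb10, Psme1 and Psme2, are shown apart from the other 45. The rule also takes in Psmc3ip, which encodes a partner protein of a 19S ATPase with a role in meiotic recombination, and Psme2b, a close copy of Psme2. Neither is a proteasome subunit.

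The libraries compare patrolling (pMo), intermediate (intMo) and conventional monocytes (cMo), with 3 libraries per subset numbered 0, 1 and 2. All came from primary wild-type cells of the C57BL/6 background and were labelled as in vitro samples. The series title places the pMos in bone marrow cultures with OP9-DLL1, bone marrow stromal cells made to express the Notch ligand Delta-like 1. The sources used here give no age or sex of the mice and no gate for sorting the subsets, and separate cultures or animals behind the libraries are not stated. The p-values therefore measure the spread between these libraries, which may be technical.

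The 26S proteasome is the protease that degrades proteins tagged with ubiquitin. Its barrel-shaped 20S core has outer rings of alpha subunits and inner rings of beta subunits, and the 19S cap recognises, unfolds and feeds in the substrate. The beta subunits Psmb5, Psmb6 and Psmb7 carry the catalytic sites of the standard core. In the immunoproteasome Psmb8 takes the place of Psmb5, Psmb9 that of Psmb6 and Psmb10 that of Psmb7. Interferon gamma induces these genes, as well as Psme1 and Psme2, which encode the PA28 activator, and haematopoietic cells express them without stimulation. The exchanged sites favour peptides whose ends suit loading onto MHC class I molecules.

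Psmb9 and Psme1 were the inducible members that passed the test, and the regions around their starts are shown together with that of Psmb8, the third inducible gene with a motif match. Each window runs from 250 bases before to 50 bases after the RefSeq start of the gene on GRCm38.p6. Psme1 lies at chr14:55578244-55578543 on the plus strand, Psmb9 at chr17:34187281-34187580 on the minus strand and Psmb8 at chr17:34197945-34198244 on the plus strand. Capitals mark an ISRE-like match in Psme1 and a CCAAT box in Psmb9, which both read on the strand opposite to the one printed, and a GAS-like match in Psmb8.
Psme1: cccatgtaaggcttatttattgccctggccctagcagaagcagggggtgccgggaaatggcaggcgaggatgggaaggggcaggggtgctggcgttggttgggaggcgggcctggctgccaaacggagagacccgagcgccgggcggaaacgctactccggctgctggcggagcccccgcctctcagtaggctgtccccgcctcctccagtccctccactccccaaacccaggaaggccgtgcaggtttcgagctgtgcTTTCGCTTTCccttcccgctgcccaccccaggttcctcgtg
Psmb9: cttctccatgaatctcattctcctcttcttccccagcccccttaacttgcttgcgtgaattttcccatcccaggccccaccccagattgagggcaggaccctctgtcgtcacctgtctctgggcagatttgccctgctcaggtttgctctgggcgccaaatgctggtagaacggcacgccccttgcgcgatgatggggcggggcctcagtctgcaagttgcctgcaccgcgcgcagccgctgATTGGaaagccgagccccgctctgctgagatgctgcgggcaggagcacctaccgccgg
Psmb8: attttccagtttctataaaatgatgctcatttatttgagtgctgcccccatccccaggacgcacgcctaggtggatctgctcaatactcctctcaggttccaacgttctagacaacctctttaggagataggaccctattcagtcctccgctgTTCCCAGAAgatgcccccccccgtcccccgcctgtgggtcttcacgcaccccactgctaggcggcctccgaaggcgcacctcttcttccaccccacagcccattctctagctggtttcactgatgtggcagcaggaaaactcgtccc

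Motifs were searched on both strands as plain letters. The ISRE-like pattern was GAAANNGAAA, after the interferon-stimulated response element, and the GAS-like pattern was TTCNNNGAA, after the site of activated STAT dimers. The ISRE-like pattern stood in 1 of the 5 inducible members and in 4 of the 37 other members with a window (Psmb3, Psmd4, Psmd9 and Psmg4), against 3.99% of 27025 genes. The GAS-like pattern stood in 1 of 5 and in 2 of 37 (Psmd2 and Psmg1), against 9.55% of genes. TGACNNNGC, after the antioxidant response element, was found in 0 of 5 and 6 of 37, against 14% of genes. The CCAAT box (CCAAT) was found in 1 of 5 and 14 of 37, against 41.1% of genes. A window was at hand for 42 of the 50 members. The matches describe letters in these windows and do not show binding.

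Psmb9 and Psmb8 are neighbours in the MHC region of chromosome 17. In the GENCODE annotation of GRCm38, Psmb9 spans 34181987 to 34187764 on the minus strand and Psmb8 spans 34197721 to 34201454 on the plus strand. Tap1, which encodes a subunit of the peptide transporter that serves MHC class I, fills the space between them from 34187553 to 34197225 on the plus strand. The RefSeq starts of Psmb9 and Tap1 lie 226 bases apart on opposite strands, and their windows share 275 bases. The RefSeq starts of Psmb9 at 34187330 and of Psmb8 at 34198195 lie inside the GENCODE genes. Psme1 and Psme2 are neighbours on chromosome 14, at 55578123 to 55581529 on the plus strand and 55587441 to 55591113 on the minus strand. Psmb10 lies apart from these on chromosome 8, at 105935735 to 105938444 on the minus strand. The printed windows of Psme1, Psmb9 and Psmb8 lie wholly inside the GENCODE genes. Bases before the GENCODE starts of these printed genes were therefore not searched for motifs in them.

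Annotated genes overlap several of these loci. Tap1 shares 212 bases with Psmb9, the antisense gene Gm20496 shares 2139 with Psmb8, the antisense gene Gm16156 covers all 2710 bases of Psmb10, and Emc9 shares 14 bases with Psme1. These shared bases are of whole gene spans, introns included, and overlap between exons was not measured. The sources used here do not state a strand setting for the counting. Whether reads from such partners entered the counts of these members is therefore not known.

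The libraries held 18455115 to 29985683 estimated counts each. Within each subset, log2 CPM (counts scaled to a common library size) of libraries 1 and 2 correlated at 0.986 to 0.99 across genes, whereas correlations with library 0 were 0.951 to 0.975, so the libraries numbered 0 stood apart. A list of 12 monocyte genes summed to between 19000 and 20000 CPM in pMo, between 13500 and 13800 in intMo and between 11900 and 24600 in cMo, with no gene of it at 0 in any library. Granulocyte and progenitor genes (11 listed) summed to 580, 2470 and 2540 CPM in pMo libraries 0, 1 and 2, to 487, 4050 and 3770 in intMo, and to 12300, 2260 and 2540 in cMo. Stromal genes (15 listed) summed to between 212 and 431 CPM in pMo, between 194 and 633 in intMo and between 17.9 and 28 in cMo, with Dcn at 0 in all 9 libraries. Lymphoid genes (12 listed) summed to 26.5 to 44.4, 29.8 to 47.7 and 19.3 to 37.8 CPM in pMo, intMo and cMo, with 1 to 6 of them at 0 in a library. The part of these other cell types in the results below was not tested.

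The inducible catalytic subunits were expressed in all 9 libraries, and all 3 had positive log2 changes in pMo and intMo relative to cMo, of which that of Psmb9 in intMo passed the test. Values below are CPM scaled by the TMM method, in the order of libraries 0, 1 and 2. Log2 changes carry their standard error, and adjusted p-values come from edgeR's quasi-likelihood test with Benjamini-Hochberg adjustment over all 14059 genes, called under 0.05. In bulk samples, fewer cells of a type and less RNA per cell cannot be told apart.

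Psmb8, the subunit that takes the place of Psmb5, had 309, 289 and 287 CPM in pMo, 290, 329 and 285 in intMo, and 286, 224 and 280 in cMo. The pMo libraries all lay just above the cMo libraries, while intMo and cMo overlapped. The differences did not pass the test, with a log2 change of 0.16 ± 0.13 for pMo against cMo (adjusted p = 0.366) and of 0.20 ± 0.13 for intMo against cMo (adjusted p = 0.31). Without cMo library 1, the lowest library, the values were 0.06 and 0.09, and without intMo library 1 the intMo value was 0.13.

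Psmb9, the subunit that takes the place of Psmb6, had 121, 140 and 142 CPM in pMo, 141, 172 and 164 in intMo, and 112, 100 and 122 in cMo. All intMo libraries exceeded all cMo libraries, and pMo overlapped both. Psmb9 was 1.43-fold higher in intMo than in cMo (log2 change 0.51 ± 0.13, adjusted p = 0.0223). For pMo against cMo the log2 change was 0.27 ± 0.13 and did not pass the test (adjusted p = 0.155). The intMo call was lost without cMo library 1 (log2 change 0.44, adjusted p = 0.0655), without intMo library 1 (0.45, adjusted p = 0.0651), without intMo library 2 (0.49, adjusted p = 0.0678) and in a fit of the 6 intMo and cMo libraries alone (0.52, adjusted p = 0.0581).

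Psmb10, the subunit that takes the place of Psmb7, had 133, 153 and 143 CPM in pMo, 137, 169 and 148 in intMo, and 109, 109 and 144 in cMo. The cMo library 2 reached into the range of the other subsets. Log2 changes were 0.24 ± 0.15 for pMo against cMo (adjusted p = 0.244) and 0.33 ± 0.15 for intMo against cMo (adjusted p = 0.141). Without cMo library 2, the intMo value was 0.47 and passed the test (adjusted p = 0.0474), and the pMo value was 0.38 (adjusted p = 0.0718).

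Both PA28 genes had higher mean levels in pMo and intMo than in cMo, and Psme1 passed the test in both comparisons. Psme1, the alpha subunit of the activator ring, had 242, 311 and 308 CPM in pMo, 242, 317 and 283 in intMo, and 187, 167 and 211 in cMo. Every pMo and intMo library exceeded every cMo library. Psme1 was 1.52-fold higher in pMo than in cMo (log2 change 0.61 ± 0.16, adjusted p = 0.0168) and 1.49-fold higher in intMo than in cMo (0.57 ± 0.16, adjusted p = 0.0284). The pMo call was lost without cMo library 1, pMo library 1 or pMo library 2 (log2 changes 0.52, 0.55 and 0.56, adjusted p = 0.0554, 0.0645 and 0.0598). The intMo call was lost without cMo library 0, cMo library 1, intMo library 1 or intMo library 2 (0.56, 0.49, 0.48 and 0.57, adjusted p = 0.0643, 0.0824, 0.0838 and 0.0753) and in a fit of those subsets alone (0.58, adjusted p = 0.0561).

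Psme2, the beta subunit of the same ring, had 163, 271 and 278 CPM in pMo, 162, 250 and 205 in intMo, and 145, 141 and 195 in cMo. Library 0 of pMo and of intMo lay within the cMo range, so the subsets overlapped. The log2 changes of 0.57 ± 0.24 for pMo against cMo (adjusted p = 0.106) and 0.36 ± 0.24 for intMo against cMo (adjusted p = 0.316) did not pass the test. Without pMo library 0 the pMo value was 0.79 and passed (adjusted p = 0.0302), and with libraries 1 and 2 of each subset alone it was 0.71 (adjusted p = 0.0114). The intMo value was 0.19 without intMo library 1 (adjusted p = 0.636) and ran from 0.19 to 0.52 with 1 library left out. The close copy Psme2b, whose reads may be split with Psme2, had 25.1, 21.1 and 33.1 CPM in pMo, 23, 34.3 and 34.4 in intMo, and 6.37, 26.4 and 25.2 in cMo. With the counts of both summed, an alternative added after the data were seen, the log2 change for pMo against cMo was 0.55 (adjusted p = 0.105).

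**Figure D1:**
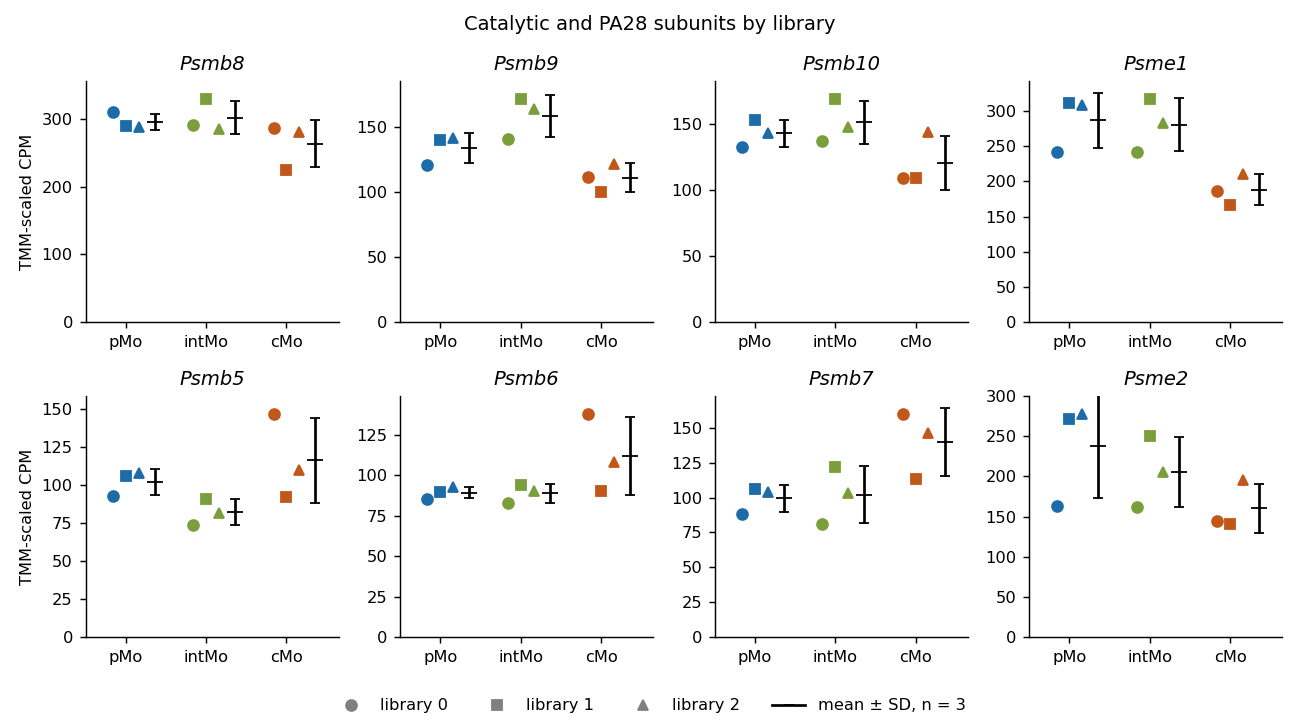
TMM-scaled CPM (vertical axis, from 0) of the inducible and standard catalytic subunits and of both PA28 genes in each of the 9 libraries, by subset on the horizontal axis, with mean ± SD (n = 3) as bars. The pMo and intMo points of Psme1 all sit above its cMo points, and cMo library 0 is the highest point for Psmb5, Psmb6 and Psmb7.

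The standard catalytic subunits had negative log2 changes in pMo and intMo relative to cMo, and none of them passed the test. Psmb5, the chymotrypsin-like subunit, had 92.6, 106 and 108 CPM in pMo, 74, 90.9 and 81.7 in intMo, and 147, 92.4 and 110 in cMo. All intMo libraries lay below all cMo libraries, while pMo and cMo overlapped. The log2 change was -0.19 ± 0.18 for pMo against cMo (adjusted p = 0.433) and -0.50 ± 0.18 for intMo against cMo (adjusted p = 0.0654). Without cMo library 0 the pMo value was 0.01, and with libraries 1 and 2 alone it was 0.08, so its direction rested on that library. The intMo value passed the test without cMo library 1 (-0.65, adjusted p = 0.0291) and in DESeq2 (-0.51, adjusted p = 0.0381). It was -0.30 without cMo library 0 (adjusted p = 0.177) and -0.22 with libraries 1 and 2 alone (adjusted p = 0.213).

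Psmb6, the caspase-like subunit, had 85.6, 89.5 and 92.7 CPM in pMo, 82.7, 94.1 and 90 in intMo, and 138, 90.5 and 108 in cMo. The cMo library 1 fell within the range of the other subsets. The log2 change of Psmb6 was -0.33 ± 0.15 in both comparisons with cMo (adjusted p = 0.135 for pMo and 0.148 for intMo). Without cMo library 1 both values were -0.47 and passed the test (adjusted p = 0.0389 for pMo and 0.0486 for intMo). Without cMo library 0 both were -0.16 (adjusted p = 0.379 for pMo and 0.402 for intMo), and with libraries 1 and 2 alone they were -0.12 for pMo and -0.10 for intMo.

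Psmb7, the trypsin-like subunit, had 88.5, 106 and 104 CPM in pMo, 81.4, 122 and 103 in intMo, and 160, 113 and 146 in cMo. The pMo libraries all lay below the cMo libraries, and intMo library 1 lay above cMo library 1. Log2 changes were -0.49 ± 0.18 for pMo against cMo (adjusted p = 0.0687) and -0.45 ± 0.18 for intMo against cMo (adjusted p = 0.102). The pMo value passed the test without cMo library 1 (-0.62, adjusted p = 0.0354), without intMo library 0 (-0.48, adjusted p = 0.0433), in a fit of pMo and cMo alone (-0.50, adjusted p = 0.0454) and in DESeq2 (-0.50, adjusted p = 0.0412). With libraries 1 and 2 alone the values were -0.29 for pMo and -0.20 for intMo (adjusted p = 0.153 and 0.365). The gene Nek6 shares 6571 bases with Psmb7 on the opposite strand.

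The ratio of each inducible subunit to the standard subunit it replaces was higher in pMo and intMo than in cMo, with no overlap between libraries for any of the 3 pairs. A ratio within a library does not depend on scaling. The log2 ratio of Psmb8 over Psmb5 was 1.74, 1.45 and 1.41 in pMo, 1.97, 1.85 and 1.80 in intMo, and 0.96, 1.28 and 1.35 in cMo. Its mean was 1.53 ± 0.18 in pMo, 1.88 ± 0.09 in intMo and 1.19 ± 0.21 in cMo (SD, n = 3 each). The 3 subsets formed separate ranges, with intMo highest and cMo lowest.

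For Psmb9 over Psmb6 the log2 ratio was 0.50, 0.65 and 0.61 in pMo, 0.77, 0.87 and 0.87 in intMo, and -0.29, 0.15 and 0.18 in cMo. The order of the subsets was the same as for the first pair, again without overlap. For Psmb10 over Psmb7 it was 0.58, 0.52 and 0.45 in pMo, 0.75, 0.47 and 0.53 in intMo, and -0.56, -0.05 and -0.02 in cMo. Here pMo and intMo overlapped and both lay above cMo.

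The differences in mean log2 ratio between pMo and cMo were 0.34 for Psmb8 over Psmb5, 0.57 for Psmb9 over Psmb6 and 0.73 for Psmb10 over Psmb7. Between intMo and cMo they were 0.68, 0.83 and 0.79 in the same order, or 1.6-fold to 1.77-fold. Between pMo and intMo they were -0.34, -0.25 and -0.06. A two-sided exact permutation test gave p = 0.1 for 8 of the 9 comparisons, the smallest value that 3 against 3 libraries allow (0.113 adjusted over the 9), and p = 0.6 for Psmb10 over Psmb7 between pMo and intMo. This permutation test therefore cannot reach 0.05 with so few libraries. With libraries 1 and 2 alone, the pMo against cMo difference for Psmb8 over Psmb5 was 0.12, and without cMo library 0 it was 0.22. The other differences with cMo under those settings were at least 0.42.

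**Figure D2:**
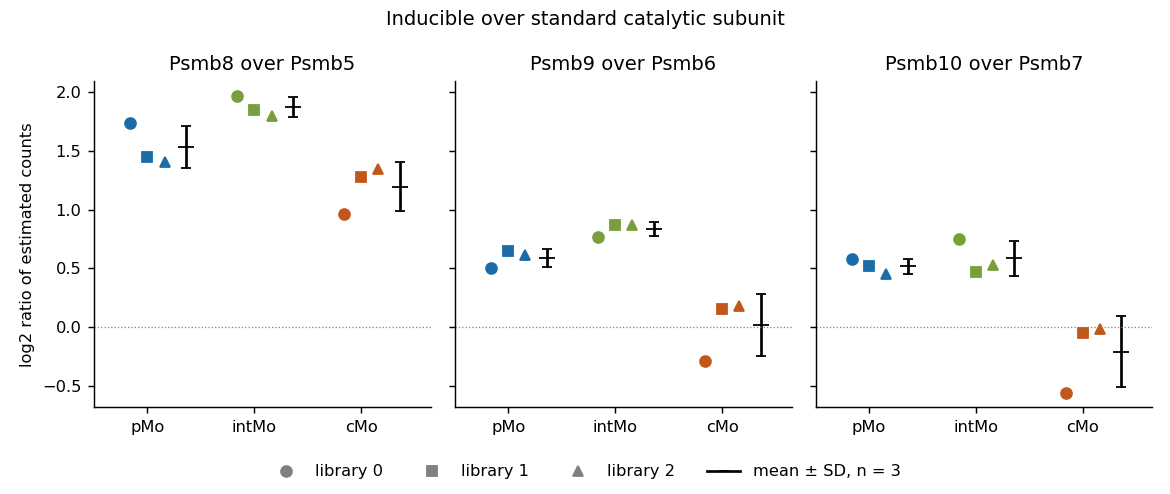
Log2 ratio of estimated counts (vertical axis) of each inducible subunit over the standard subunit it replaces, per library, with mean ± SD (n = 3). The cMo points lie lowest for all 3 pairs, and for Psmb8 over Psmb5 the intMo points (1.80 to 1.97) lie above the pMo points (1.41 to 1.74).

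Per kilobase of transcript, the inducible genes made up 57.0%, 55.3% and 54.5% of the summed CPM of the 6 catalytic genes in pMo, 60.2%, 58.6% and 58.4% in intMo, and 41.9%, 48.5% and 49.2% in cMo. The subsets did not overlap. With the transcript lengths used, the inducible part was the larger in every pMo and intMo library and the smaller in every cMo library. The cMo libraries 1 and 2 lay near equal parts, and other transcript lengths were not tried. Which part was the larger in cMo is therefore not settled. The sum of CPM over Psmb8, Psmb9 and Psmb10 was 562.3, 582.4 and 571.3 in pMo, 568.5, 670.4 and 597.2 in intMo, and 507.2, 433.8 and 546.2 in cMo. That over Psmb5, Psmb6 and Psmb7 was 266.7, 301.6 and 304.9 in pMo, 238.1, 307.2 and 274.4 in intMo, and 445.3, 296.1 and 364.1 in cMo. For the inducible sum the pMo and intMo libraries all exceeded the cMo libraries. For the standard sum cMo library 1 lay within the range of the others.

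Over all members, few genes passed the test in either direction. For intMo against cMo, 2 of 50 members (4%) were called higher and 6 (12%) lower, where 14% of all genes tested were called higher and 10.4% lower. For pMo against cMo, 1 member (2%) was called higher and 9 (18%) lower, where 17.2% of genes were called higher and 15.9% lower. The shares called lower were near those of all genes. The shares called higher were below them. The median log2 change of the 50 members was -0.30 for pMo against cMo and -0.37 for intMo against cMo, beside 0.03 and -0.01 over all genes tested.

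In terms of overlap between libraries, 2 members lay higher and 19 lower in every pMo library than in every cMo library, where 26% and 23.5% of all genes did. For intMo against cMo, 2 lay higher and 11 lower, where 21.2% and 20.1% of all genes did. The 2 members higher in pMo were Psmb8 and Psme1, and those higher in intMo were Psmb9 and Psme1. Both comparisons share the cMo libraries, so their values are not independent of each other.

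The 31 standard subunits of the 20S core and the 19S cap had mostly small negative log2 changes against cMo. All 31 were below 0 for pMo against cMo, with a median of -0.35 and a range from -0.78 (Psma7) to -0.12 (Psmd4). For intMo against cMo 29 were below 0, with a median of -0.39, and Psma3 (0.03) and Psma5 (0.01) lay just above. Of the 31, 6 passed the test as lower in pMo and 4 as lower in intMo, which are 19.4% and 12.9% of the 31 beside 15.9% and 10.4% of all genes. No overlap with cMo was seen for 13 and 8 (41.9% and 25.8%), beside 23.5% and 20.1% of all genes. Their summed CPM was 3037, 3531 and 3640 in pMo, 2907, 3956 and 3385 in intMo, and 5098, 3663 and 4583 in cMo. The pMo sums all lay below the cMo sums, whereas intMo library 1 lay above cMo library 1.

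The values of this group moved with single libraries. The cMo library 0 was the highest of the 9 libraries for 23 of the 31 standard subunits, and intMo library 0 was the lowest for 20. The shares of all genes with their highest or lowest value in these libraries are not given here. Whether these counts are particular to the subunits therefore cannot be told. Without cMo library 0, 5 members were called lower in pMo and 1 in intMo, and the medians of the 31 were -0.26 and -0.28. Without cMo library 1, 14 members were called lower in each comparison, and without intMo library 0 there was 1 in intMo. Without pMo library 0, 1 or 2, the number lower in pMo was 3, 4 and 3. With libraries 1 and 2 alone, 6 members were called lower in pMo and 3 in intMo. In that fit 27 and 28 of the 31 subunits stayed below 0, with a median of -0.16 in both. The shares of all genes called in these fits are not given here. Whether the shifts in the counts are particular to the members therefore cannot be told.

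Cell cycle genes differed in the same direction as the standard subunits. A list of 20 such genes summed to 621, 959 and 1020 CPM in pMo, 630, 2610 and 2450 in intMo, and 5350, 4200 and 4560 in cMo. All 20 were called lower in pMo than in cMo and 8 in intMo, where 15.9% and 10.4% of all genes were. The granulocyte and progenitor sum of 12300 CPM also set cMo library 0 apart. The part of either list in the subunit levels was not tested.

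**Figure D3:**
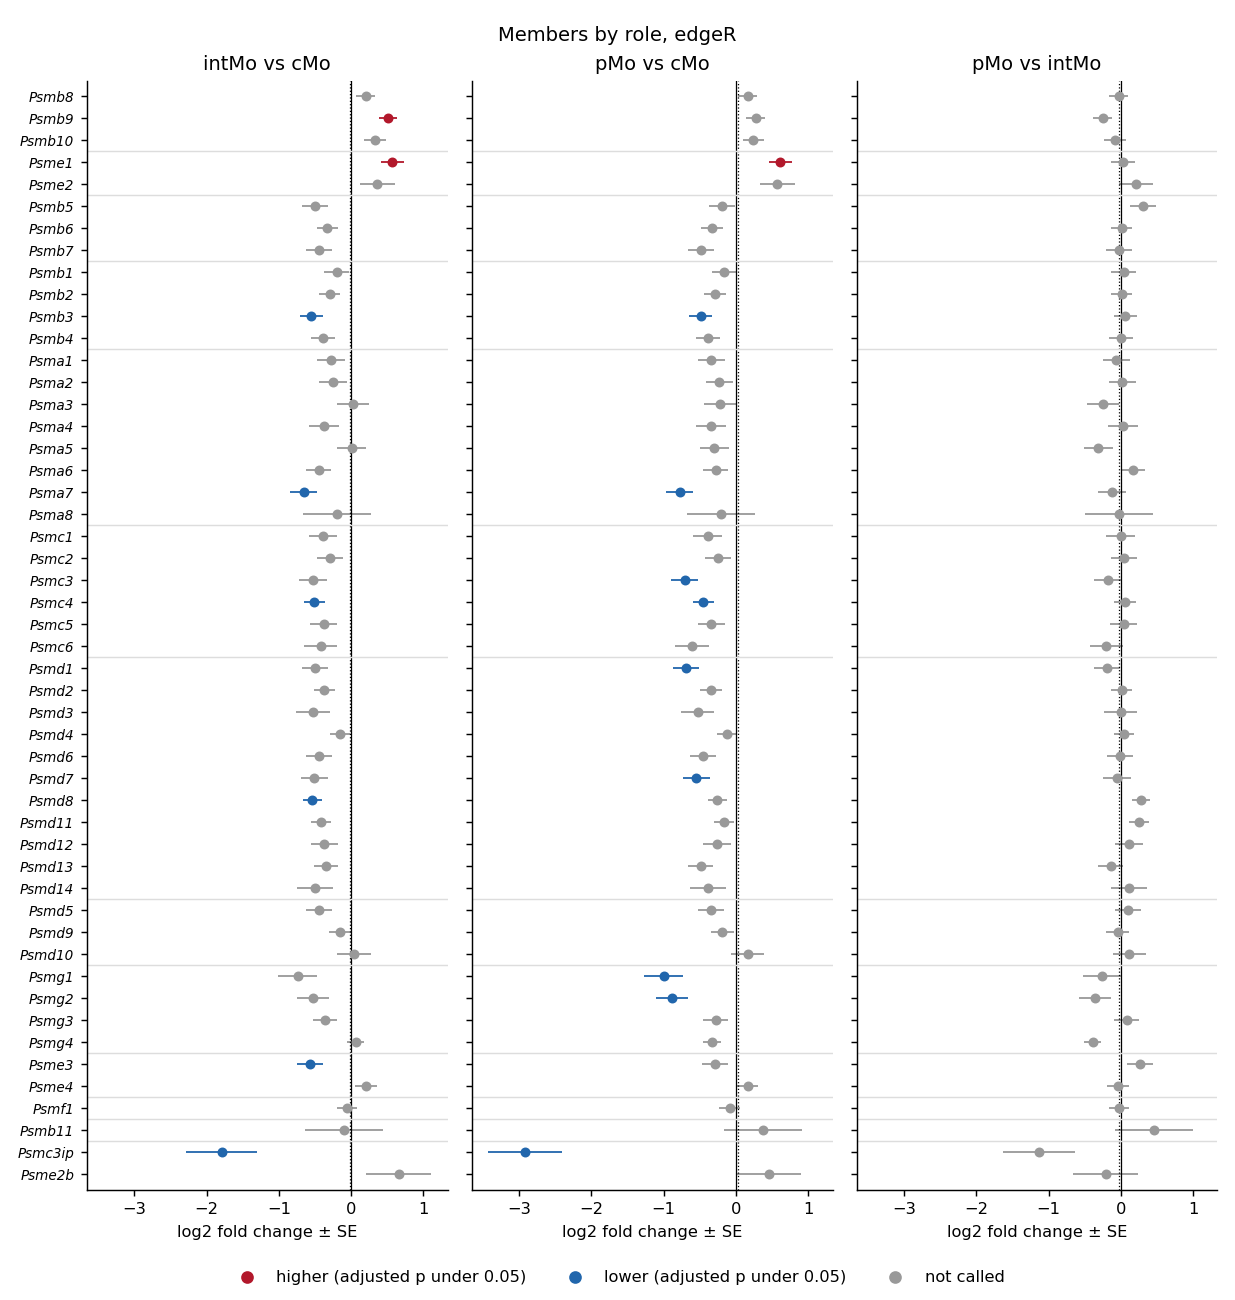
Log2 fold change ± SE (edgeR, horizontal axis) of each of the 50 members, grouped by role, for intMo against cMo, pMo against cMo and pMo against intMo. Red points passed the test as higher, blue as lower and grey did not pass, and the dotted line is the median of all genes tested (-0.01, 0.03 and -0.02). The inducible members at the top lie right of 0 in the comparisons with cMo, and the standard subunits lie mostly left of it.

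Among the alpha subunits, which form the gated outer rings, Psma7 was lower in both comparisons with cMo. It had 127, 160 and 168 CPM in pMo, 129, 199 and 168 in intMo, and 253, 231 and 299 in cMo. All pMo and intMo libraries lay below all cMo libraries. Its log2 change was -0.78 ± 0.19 for pMo against cMo (adjusted p = 0.0121), a call that held in all 17 alternatives run. For intMo against cMo it was -0.66 ± 0.19 (adjusted p = 0.0324), a call lost in 6 of 17, which were the fits without cMo library 0 or 2, intMo library 0 or 2 or pMo library 1 and the fit of those subsets alone (adjusted p = 0.0566 to 0.0913). Psma7 was also the most abundant alpha subunit per kilobase, with a mean of 211 CPM per kilobase over the 9 libraries. The other 6 general alpha subunits were not called in any comparison.

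Of the beta subunits without a catalytic site, Psmb3 was called lower in both comparisons. It had 87.1, 99.7 and 92.1 CPM in pMo, 75.8, 95.3 and 97.2 in intMo, and 153, 108 and 131 in cMo. The cMo libraries all lay above the rest. The log2 change was -0.49 ± 0.16 for pMo against cMo (adjusted p = 0.0405) and -0.55 ± 0.16 for intMo against cMo (adjusted p = 0.0346). Each call was lost in 10 of 17 alternatives, and without cMo library 0 the values were -0.36 and -0.42 (adjusted p = 0.113 and 0.0941). Psmb3 has an ISRE-like match in its window, as Psme1 does. Psmb4, the most abundant of this group at 170 CPM per kilobase, was not called, with log2 changes of -0.39 in both comparisons.

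The ATPases of the 19S base unfold the substrate and push it into the core. Psmc4 was called lower in both comparisons with cMo and Psmc3 in pMo. Psmc3, the most abundant ATPase at 95.6 CPM per kilobase, had 109, 131 and 133 CPM in pMo, 113, 161 and 150 in intMo, and 240, 160 and 210 in cMo. The pMo libraries lay below all cMo libraries, and intMo library 1 just overlapped cMo. Its log2 change was -0.71 ± 0.19 for pMo against cMo (adjusted p = 0.0182), lost without cMo library 0, pMo library 0 or pMo library 1 (adjusted p = 0.0536, 0.0677 and 0.051). For intMo against cMo it was -0.53 ± 0.19 and did not pass (adjusted p = 0.0711). Psmc4 had 84.5, 90 and 88.4 CPM in pMo, 76.5, 94.1 and 82.4 in intMo, and 142, 97.9 and 120 in cMo. Here too all cMo libraries lay above the others. Its log2 changes were -0.45 ± 0.15 for pMo (adjusted p = 0.0451) and -0.51 ± 0.15 for intMo (adjusted p = 0.0375), lost in 9 and 10 of 17 alternatives. Without cMo library 0 they were -0.31 and -0.37 (adjusted p = 0.122 and 0.0962).

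The other subunits of the cap hold the ubiquitin receptors and the enzyme that removes the ubiquitin chain. Of these 11, Psmd1 and Psmd7 were called lower in pMo than in cMo and Psmd8 was called lower in intMo than in cMo. Psmd1, a large scaffold of the base, had 95.1, 101 and 97 CPM in pMo, 99.9, 129 and 105 in intMo, and 201, 124 and 146 in cMo. Its log2 change for pMo against cMo was -0.69 ± 0.18 (adjusted p = 0.0192), lost without pMo library 0, 1 or 2 (adjusted p = 0.06, 0.0568 and 0.0619). Psmd7, the partner of the deubiquitinase Psmd14 in the lid, had a log2 change of -0.55 ± 0.19 (adjusted p = 0.0481), lost in 9 of 17 alternatives and -0.37 without cMo library 0 (adjusted p = 0.142). Psmd8, a lid subunit, had 149, 154 and 142 CPM in pMo, 107, 139 and 120 in intMo, and 180, 161 and 192 in cMo. The 3 subsets did not overlap, with intMo lowest. Its log2 change for intMo against cMo was -0.54 ± 0.13 (adjusted p = 0.0165), lost without intMo library 0 or 2 (adjusted p = 0.0541 and 0.0575) and in a fit of those subsets alone (adjusted p = 0.0601). For pMo against cMo it was -0.26 ± 0.13 (adjusted p = 0.154). Psmd2, the most abundant of this group at 83.7 CPM per kilobase, was not called.

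Assembly chaperones build the core and the cap and are not part of the finished particle. Psmg1 and Psmg2, which act as a pair on the alpha ring, were called lower in pMo than in cMo. Psmg1 had 8.96, 10.7 and 10.1 CPM in pMo, 11.8, 13.3 and 10.6 in intMo, and 29.1, 13.4 and 17.3 in cMo. Psmg2 had 9.41, 9.59 and 8.26 CPM in pMo, 10.2, 13.6 and 11.2 in intMo, and 21.8, 12.6 and 16.2 in cMo. For both genes the pMo libraries lay below all cMo libraries, and cMo library 0 stood highest. Their log2 changes for pMo against cMo were -1.0 ± 0.27 (adjusted p = 0.0185) and -0.89 ± 0.22 (adjusted p = 0.0133). The Psmg1 call was lost without pMo library 0 or 2 (adjusted p = 0.0614 and 0.0547) and that of Psmg2 without pMo library 2 (adjusted p = 0.0541). The log2 change of Psmg1 was -0.63 without cMo library 0 and -0.55 with libraries 1 and 2 alone, where the call held.

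The other pair of core chaperones, Psmg3 and Psmg4, was not called. Psmg4 had 14.3, 14.2 and 14.8 CPM in pMo, 19.8, 19.4 and 17.7 in intMo, and 18.2, 18 and 18.3 in cMo. The pMo libraries lay below those of both other subsets. Its log2 change was -0.33 ± 0.12 for pMo against cMo (adjusted p = 0.0657) and -0.39 ± 0.12 for pMo against intMo (adjusted p = 0.113). The 19S chaperones Psmd5, Psmd9 and Psmd10 were not called either, with log2 changes of -0.34, -0.19 and 0.16 for pMo against cMo. The largest change among them was -0.44 ± 0.18 for Psmd5 in intMo against cMo (adjusted p = 0.111), and Psmd10 was the most abundant at 21.8 CPM per kilobase. Among the core chaperones, that of Psmg1 in intMo against cMo was -0.74 ± 0.27 (adjusted p = 0.0713).

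Of the activators and regulators outside the PA28 pair, Psme3, which forms the nuclear PA28 ring, was called lower in intMo than in cMo. It had 111, 98.6 and 103 CPM in pMo, 86.6, 79.8 and 92 in intMo, and 167, 114 and 101 in cMo. The intMo libraries lay below those of both other subsets, and pMo overlapped cMo. The log2 change for intMo against cMo was -0.57 ± 0.18 (adjusted p = 0.0489), lost in 13 of 17 alternatives and -0.32 without cMo library 0 (adjusted p = 0.0978). For pMo against cMo it was -0.29 ± 0.18 (adjusted p = 0.242). Psme1 and Psme3 had log2 changes of opposite sign against cMo. Psme4, a large single-chain activator, had log2 changes of 0.16 and 0.20 for pMo and intMo against cMo, and Psmf1, a regulator of the core, had -0.09 and -0.06. Neither was called.

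The tissue-restricted catalytic and alpha subunits were near the lower end of detection. Psmb11, the catalytic subunit of the thymus, had 0.252 to 1.3 CPM in the 9 libraries, from 7.22 to 36.3 estimated counts. Psma8, the alpha subunit of the testis, had 0.895 to 2.52 CPM, from 27 to 70 counts. Neither was called in any comparison.

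Psmc3ip, which matches the rule by its symbol, had the largest change. It had 1.11, 1.09 and 1.75 CPM in pMo, 1.13, 3.44 and 3.98 in intMo, and 15.1, 6.22 and 8.53 in cMo. All cMo libraries lay above the others. Its log2 change was -2.92 ± 0.51 for pMo against cMo (adjusted p = 0.00278), a call held in all 17 alternatives, and -1.79 ± 0.49 for intMo against cMo (adjusted p = 0.0267), lost without cMo library 0 (-1.36, adjusted p = 0.0836), without intMo library 1 (-1.94, adjusted p = 0.0503) and in a fit of those subsets alone (-1.77, adjusted p = 0.0561). Mlx shares 385 bases with it on the opposite strand.

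Per kilobase of transcript, the most abundant member over the 9 libraries was Psme1, at a mean of 227 CPM per kilobase. Psma7 (211), Psme2 (209), Psmb8 (176) and Psmb4 (170) followed. In pMo, Psme1 (258), Psme2 (247) and Psmb8 (181) led, and in cMo Psma7 (285), Psmb4 (202) and Psmb3 (171) led. Assembly chaperones ranged from 8.83 (Psmd5) to 31.0 (Psmg4) CPM per kilobase, below every standard subunit other than Psmd11 (25.7).

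**Figure D4:**
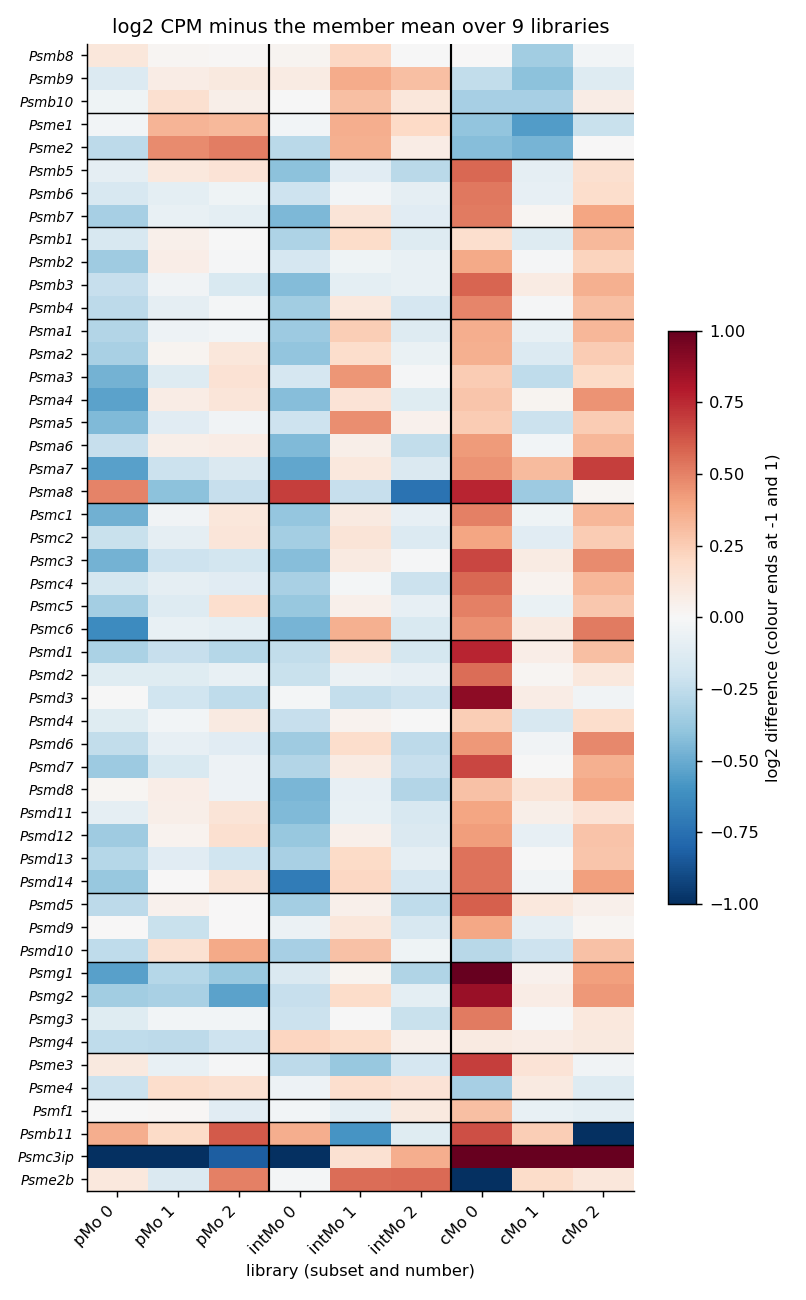
Log2 CPM of each member in each library minus that member's mean over the 9 libraries, with members as rows grouped by role and libraries as columns, and colours ending at a difference of -1 and 1. Each inducible member at the top has its lowest value in a cMo column, library 1 for 4 of them and library 0 for 1. Other cMo columns overlap pMo or intMo for some of them. Most standard subunits are highest in cMo library 0.

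Between pMo and intMo, 0 of 50 members were called in either direction by edgeR, where 3.29% of all genes were called higher and 1.69% lower. At an unadjusted p under 0.05, 0 members were higher and 2 were lower (Psmc3ip and Psmg4). DESeq2 called 0 higher and 1 lower (Psmg4), and libraries 1 and 2 alone gave 1 lower (Psmc3ip). In every pMo library relative to every intMo library, 3 members were higher (Psmb5, Psmd8 and Psme3) and 2 lower (Psmg2 and Psmg4), where 14.8% and 12.9% of all genes were. The median log2 change of the 50 was 0.0, beside -0.02 over all genes. The log2 changes of the inducible members were -0.03 ± 0.13 for Psmb8, -0.25 ± 0.13 for Psmb9, -0.08 ± 0.15 for Psmb10, 0.03 ± 0.16 for Psme1 and 0.21 ± 0.24 for Psme2. Those of their standard counterparts were 0.31 ± 0.18 for Psmb5, 0.01 ± 0.15 for Psmb6 and -0.03 ± 0.18 for Psmb7. In the other roles, the largest changes were -1.13 ± 0.50 for Psmc3ip (adjusted p = 0.267), 0.46 ± 0.54 for the scarce Psmb11 (adjusted p = 0.743), -0.31 for Psma5 among the alpha subunits, 0.06 for Psmb3 among the beta subunits without a catalytic site, -0.20 for Psmc6 among the ATPases, 0.28 for Psmd8 in the rest of the cap, -0.39 for Psmg4 among the core chaperones and 0.27 for Psme3 among the other activators, and none of these passed the test.

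Genes of interferon signalling and of peptide supply to MHC class I were examined beside the members. Of 17 genes of interferon receptors, signalling and the factors that switch on immunoproteasome genes, 9 were called higher in pMo and 5 in intMo than in cMo, and none lower, where 17.2% and 14% of all genes were called higher. The median log2 change of these 17 was 0.72 and 0.41, beside 0.03 and -0.01 over all genes. Irf1, a transcription factor of the immunoproteasome genes, had 299, 248 and 246 CPM in pMo, 349, 296 and 271 in intMo, and 76.6, 105 and 127 in cMo. No pMo or intMo library overlapped cMo. Irf1 was higher by a log2 of 1.36 ± 0.20 for pMo (adjusted p = 0.00107) and 1.57 ± 0.20 for intMo (adjusted p = 0.000854). Nlrc5, the transactivator of MHC class I genes, was higher by a log2 of 1.22 ± 0.12 in pMo (adjusted p = 0.000182) and 0.97 ± 0.12 in intMo (adjusted p = 0.000885). Stat2, which acts in the response to type I interferons, was higher in intMo by 1.02 ± 0.28 (adjusted p = 0.0277), lost without cMo library 0, intMo library 1 or intMo library 2 (adjusted p = 0.0591, 0.0645 and 0.0882). Socs1, a feedback inhibitor, was higher in intMo by 1.17 ± 0.37 (adjusted p = 0.0456), a call lost in 12 of 17 alternatives. Stat3, the signal carrier of several cytokines, was higher in pMo than in cMo by 0.98 ± 0.14 (adjusted p = 0.0012). It was also the only gene of the 17 called between pMo and intMo, at 0.62 ± 0.14 (adjusted p = 0.0429). Of all genes tested, 3.29% were called higher in that comparison. The Stat3 call between pMo and intMo was lost in 10 of 17 alternatives.

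Interferon-stimulated genes were also summed per library. A list of 18, which holds some of the 17 above, Stat2 and Irf7 among them, summed to 1370, 3380 and 3470 CPM in pMo, 1840, 3940 and 3710 in intMo, and 404, 1400 and 1520 in cMo. Library 0 was lowest in each subset. Of these 18, 4 were called higher in pMo than in cMo and 5 in intMo, where 17.2% and 14% of all genes were. Their median log2 change was 1.31 for pMo and 1.34 for intMo against cMo, beside 0.03 and -0.01 over all genes. In pMo and intMo, Psme1, Psme2, Psmb9 and Psmb10 were also lowest in library 0, whereas Psmb8 had its highest pMo value there. Low values in library 0 were not limited to inducible members. Of the 31 standard subunits, 20 were lowest of all libraries in intMo library 0 and 10 in pMo library 0. The shares of all genes lowest there are not given here. The part of interferon signalling in the levels of the members was not tested.

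Of 9 genes that supply peptide to MHC class I, 5 were called higher and 1 lower in pMo than in cMo. In intMo, 4 were called higher than in cMo. Over all genes tested, 17.2% were called higher and 15.9% lower in pMo, and 14% higher in intMo. Tap1, the neighbour of Psmb9, had 296, 273 and 250 CPM in pMo, 309, 297 and 320 in intMo, and 197, 187 and 160 in cMo. All pMo and intMo libraries lay above all cMo libraries, as for Psme1. The log2 change of Tap1 was 0.59 ± 0.12 for pMo (adjusted p = 0.00663) and 0.77 ± 0.12 for intMo (adjusted p = 0.00281). B2m, the light chain of MHC class I, was higher by a log2 of 1.15 ± 0.23 in pMo (adjusted p = 0.0048) and 0.87 ± 0.23 in intMo (adjusted p = 0.0225). The B2m call in intMo was lost without cMo library 0 or 1 or intMo library 1 or 2 (adjusted p = 0.057 to 0.0645). Tapbpl, an editor of bound peptides, was higher by 0.64 ± 0.11 in pMo (adjusted p = 0.00224) and 0.78 ± 0.11 in intMo (adjusted p = 0.00133). Tapbp, which holds MHC class I at the peptide transporter, was higher by 0.62 ± 0.15 in pMo (adjusted p = 0.0114) and 0.57 ± 0.15 in intMo (adjusted p = 0.0215), the second lost without intMo library 0 or 2 (adjusted p = 0.0569 and 0.0787) and in a fit of those subsets alone (adjusted p = 0.069). Canx, a chaperone of the endoplasmic reticulum, was the gene called lower in pMo, at -0.74 ± 0.17 (adjusted p = 0.00984).

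Genes around the proteasome that the symbol rule does not take were mostly not called. Of 4 further subunit and assembly genes (Adrm1, Sem1, Pomp and Akirin2), Akirin2, which brings proteasomes into the nucleus, was called lower in pMo than in cMo at -0.41 ± 0.13 (adjusted p = 0.0434), a call lost in 8 of 17 alternatives. Pomp, the maturation factor of the core, was not called. Of 8 proteasome-bound factors tested, of 9 listed, Uchl5 and Rad23b were called lower in both comparisons with cMo. Over all genes, 15.9% were called lower in pMo and 10.4% in intMo. Uchl5, a deubiquitinase that docks on the cap, had 18.5, 25.2 and 28.6 CPM in pMo, 22.5, 36.2 and 33 in intMo, and 64.4, 41.8 and 50.6 in cMo. The cMo libraries all lay above the rest, with log2 changes of -1.12 ± 0.24 for pMo (adjusted p = 0.00715) and -0.77 ± 0.24 for intMo (adjusted p = 0.0432), the second lost in 9 of 17 alternatives. Rad23b, which shuttles ubiquitinated proteins, had -0.59 ± 0.14 for pMo (adjusted p = 0.0125) and -0.46 ± 0.14 for intMo (adjusted p = 0.0438), the second lost in 13 of 17.

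Of 5 genes listed in connection with transcription of proteasome genes (Nfe2l1, Nfe2l2, Ddi2, Ngly1 and Zfand2a), Nfe2l2 was called higher in all 3 comparisons. The other 4, Nfe2l1 among them, were not called. The shares of all genes called higher were 17.2% for pMo and 14% for intMo against cMo, and 3.29% for pMo against intMo. Nfe2l2, a stress-responsive factor that binds antioxidant response elements, had 524, 741 and 749 CPM in pMo, 304, 354 and 320 in intMo, and 143, 185 and 209 in cMo. The 3 subsets did not overlap. Nfe2l2 had a log2 change of 1.91 ± 0.19 for pMo against cMo (adjusted p = 0.000172), 0.87 ± 0.19 for intMo against cMo (adjusted p = 0.0102) and 1.04 ± 0.19 for pMo against intMo (adjusted p = 0.0143), the last lost without intMo library 2 or pMo library 1 or 2 (adjusted p = 0.0675, 0.0724 and 0.0676).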

How the data were processed

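RNA was sequenced from 9 libraries, 3 each of pMo, intMo and cMo, made per the labels' protocols from RNAzol extracts (NEBNext Ultra II Stranded mRNA kit). The authors deposited estimated counts per gene, for which the submitters' processing notes name kallisto 0.46.1 and mm10. A strand setting and a transcript annotation are not stated in the sources used here. Between 25.6% and 27.5% of values per library were not whole, and all were rounded. Gene IDs were matched to GENCODE M21, and 46005 of 46517 had a symbol. Genes were filtered with filterByExpr and scaled by TMM, and all 9 libraries were fitted together in edgeR 4.0.16 (R 4.3.3), with calls at an adjusted p under 0.05. The code was tested on simulated data. Levels per kilobase used the length of the principal transcript. Alternatives were other scalings and filters, DESeq2 1.42.0, the replicate number as a block, fewer subsets or libraries, and each library left out. Deviations of same-numbered pMo and intMo libraries correlated at 0.588, 0.3 and 0.274, a hint of pairing from the data, and the block changed no call between them. The members and lists were chosen with earlier results of these data known. Catalytic and PA28 genes were named in full. Of each other role, called members, the largest change and the most abundant were named, and of the context lists called genes with large changes. Some genes that this rule takes are left out here.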

Additional observations from a re-analysis of the deposited data

How the results depend on the processing

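The number of members called rested on the setting, while the direction of the catalytic ratios did not, with 1 exception. Shares of all genes called under the other settings are not given here. Whether the shifts in number are particular to the members therefore cannot be told. Called lower in intMo against cMo, the main count of 6 members became 10 in DESeq2, 0 in a fit of those subsets alone and 3 with libraries 1 and 2 alone, and ran from 1 to 14 with 1 library left out. Called higher, the count of 2 became 0 in a fit of those subsets alone and ran from 0 to 3. For pMo against cMo, the 9 called lower ran from 3 to 14 with 1 library left out, and the 1 called higher became 2 with libraries 1 and 2 alone and ran from 0 to 2. For pMo against intMo, 1 was called lower in DESeq2 and 1 with libraries 1 and 2 alone, beside 0. With replicate number as a block, 2 members were called higher and 4 lower in intMo against cMo, 1 and 6 in pMo against cMo, and 0 and 0 in pMo against intMo. Psmb3 and Psmc4 were not called under the block in either comparison with cMo, nor was Psmd7 in pMo against cMo. Deviations of same-numbered libraries correlated at -0.143, -0.0694 and 0.0657 between intMo and cMo and at -0.0156, 0.179 and 0.23 between pMo and cMo, so numbers were not taken as pairs there. The block cannot change a mean ratio difference, as each number stands once in each subset. Its exact sign-flip test gave p = 0.25 for 8 of them, the smallest value that 3 pairs allow, and 0.5 for the other.

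The difference in the log2 ratio of Psmb10 over Psmb7 between pMo and intMo was -0.06 and became 0.02 without intMo library 0, in a range from -0.12 to 0.02 with 1 library left out. Log2 changes that turned their sign lay near 0. For pMo against intMo, Psmb8 was 0.03 (range -0.06 to 0.03 with 1 library left out) and Psmb10 0.00 (range -0.15 to 0.00) without intMo library 1. Psme1 was -0.02 with upper quartile scaling, -0.06 without intMo library 0, -0.02 without pMo library 1 and -0.01 without pMo library 2 (range -0.06 to 0.15). Psmb6 was -0.05 with upper quartile scaling, -0.02 with the filter at 1 CPM, -0.01 with those subsets alone, -0.02 with libraries 1 and 2 alone, -0.04 without intMo library 0 and -0.02 without pMo library 2 (range -0.04 to 0.05). Psmb7 was 0.11 without intMo library 1 and 0.05 without pMo library 0 (range -0.17 to 0.11). For pMo against cMo, Psmb5 was 0.08 with libraries 1 and 2 alone and 0.01 without cMo library 0 (range -0.34 to 0.01). The cause of these changes was not tested.

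With 3 libraries per subset, the ratio test cannot pass 0.05, and the smallest change called among members was a log2 of -0.45 (Psmc4, pMo against cMo). Psmb11 and Psma8 had at most 36.3 and 70 counts in a library, so their changes are loosely bounded.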
